A study of Arabidopsis thaliana with 4 samples.

Results

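The nuclear genes that encode ribosomal proteins of plastids and mitochondria were taken as those whose description in the deposited table names a ribosomal protein together with a chloroplast, a mitochondrion or a 30S or 50S subunit, without those naming a 40S or 60S subunit. This gave 47 of the 26784 genes in the table, 31 described as plastid and 16 as mitochondrial. Of the 47, 43 are described as ribosomal proteins, 2 are pseudogenes, and the descriptions of the other 2 (AT1G66890 and AT1G73770) name a ribosomal protein only as the best match. They lie on chromosome 1 (18 genes), chromosome 2 (8), chromosome 3 (15) and chromosome 4 (6); the table covers chromosome 5 only up to position 3070933, and members beyond it were not analysed here. RNA-seq libraries were compared from whole seedlings of wild-type Arabidopsis thaliana Col-0 at 6 days post germination (6 dpg, 2 libraries) and 2 days post germination (2 dpg, 2 libraries). All seeds spent 2 days in darkness at 4 °C and the seedlings grew at 22 °C under a 12-h photoperiod on reduced-strength Murashige and Skoog plates with 0.5% sucrose. The labels give no hour of harvest, so a difference in hour cannot be told apart from age. They do not say that replicates were grown apart, and each p-value below rests on library-to-library spread that may be technical only.

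Plastids and mitochondria keep ribosomes of a bacterial type, made of a small 30S-like and a large 50S-like subunit. Their RNAs and some of their proteins are encoded in the organelle, but most of the proteins are encoded in the nucleus, made in the cytosol and imported. In leaves the plastid ribosome makes core subunits of the photosystems and the large subunit of Rubisco, while the mitochondrial ribosome makes a few subunits of the respiratory chain.

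The promoters shown next are those of genes taken as examples. For the plastid, RPS31 is a small-subunit gene that fell, RPL11 the large-subunit gene with the largest fall and RPL3B the single gene that rose. NFD3 is a mitochondrial small-subunit gene. Each promoter is the 150 bases before the RefSeq start of the gene, 5′ to 3′ on the gene's strand, in build TAIR10.1 of RefSeq. Capitals mark matches, on either strand, to the telo-box AAACCCTA or to the site II elements TGGGCC and TGGGCT, motifs known from promoters of plant ribosomal protein genes; they do not overlap one another here.
RPS31 (AT2G38140, chr2:15980698-15980847, plus strand): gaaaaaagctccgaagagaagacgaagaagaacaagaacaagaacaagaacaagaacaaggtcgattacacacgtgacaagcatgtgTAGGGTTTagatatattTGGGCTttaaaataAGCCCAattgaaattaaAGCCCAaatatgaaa
RPL11 (AT1G32990, chr1:11955506-11955655, plus strand): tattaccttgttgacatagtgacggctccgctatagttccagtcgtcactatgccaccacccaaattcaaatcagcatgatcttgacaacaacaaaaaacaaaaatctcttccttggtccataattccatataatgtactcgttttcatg
RPL3B (AT3G17465, chr3:5979695-5979844, minus strand): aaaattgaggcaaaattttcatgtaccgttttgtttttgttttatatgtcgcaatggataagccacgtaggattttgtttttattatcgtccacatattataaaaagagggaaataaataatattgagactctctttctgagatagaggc
NFD3 (AT1G31817, chr1:11416445-11416594, minus strand): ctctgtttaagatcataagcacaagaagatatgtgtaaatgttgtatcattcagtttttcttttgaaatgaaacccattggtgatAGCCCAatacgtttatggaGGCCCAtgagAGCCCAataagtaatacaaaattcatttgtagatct
RPS31 shows a telo-box and 3 site II elements, and NFD3 3 site II elements. RPL11 and RPL3B show neither motif in these 150 bases.

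The recovered depth was 18330153 and 22745278 reads in the 6 dpg libraries and 20587872 and 26570983 reads in the 2 dpg libraries. At these depths 3 reads, the smallest level taken as detectable, correspond to between 0.113 and 0.164 counts per 1e6 reads (CPM). This range divides by the recovered depth before TMM scaling, which enters the other CPM values given here. With edgeR, 56.6% of the 16160 tested genes were called at an adjusted p under 0.05, 28.4% lower and 28.3% higher at 6 dpg. The median log2 fold change of all tested genes was 0.00. Markers of cell types and stages, fixed as a list of 12 genes, moved in the same interval. The summed level of 3 root markers was 44.2 and 36.4 CPM at 6 dpg, against 204 and 154 CPM at 2 dpg, and that of 3 markers of dividing cells was 15.7 and 15.1 CPM at 6 dpg, against 39.7 and 42.6 CPM at 2 dpg. The 3 markers of green tissue summed to 17882 and 16761 CPM at 6 dpg and to 28737 and 27915 CPM at 2 dpg, and the 3 markers of seed reserve use to 44.1 and 44.2 CPM at 6 dpg, against 2965 and 1794 CPM at 2 dpg. Of the 12 markers, RBCS1A did not pass the test (adjusted p = 0.0748 by edgeR) and OLEO1, at 0 in both 6 dpg libraries, was not tested; the other 10 fell. The part of these markers' tissues in the results that follow was not tested.

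Among the 44 members that passed the filter on low counts, 31 were lower at 6 dpg (28.4% of all tested genes), 1 was higher (28.3% of all) and 12 did not pass the test, so that 32 of 44 were called, beside 56.6% of all tested genes. Their median log2 fold change was -1.03. The plastid and mitochondrial genes differed in their counts. Of the 29 tested plastid genes, 27 were lower and 1 was higher, with a median log2 fold change of -1.24. Of the 15 tested mitochondrial genes, 4 were lower and 11 did not pass the test, with a median of -0.20. These 4 are 26.7% of the 15, close to the 28.4% of all tested genes called lower. The 25 of these 27 plastid genes that are described singly were between 1.60-fold and 3.05-fold lower at 6 dpg, with edgeR adjusted p-values from 2.15e-05 to 0.00126. Of the 27 genes, 21 had a log2 fold change of -1 or less; 12.5% of all tested genes were called lower with such a change. In each of these 27 genes both 6 dpg libraries lay below both 2 dpg libraries, which held for 40.2% of all tested genes. In whole seedlings, fewer cells of a type and less RNA per cell cannot be told apart.

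Of the authors' deposited table, 32.8% of the 22473 genes with an adjusted p had one under 0.05; among the members these were 28 of 30 plastid genes and 2 of 15 mitochondrial genes. All 30 are also among the genes called here.

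**Figure D1:**
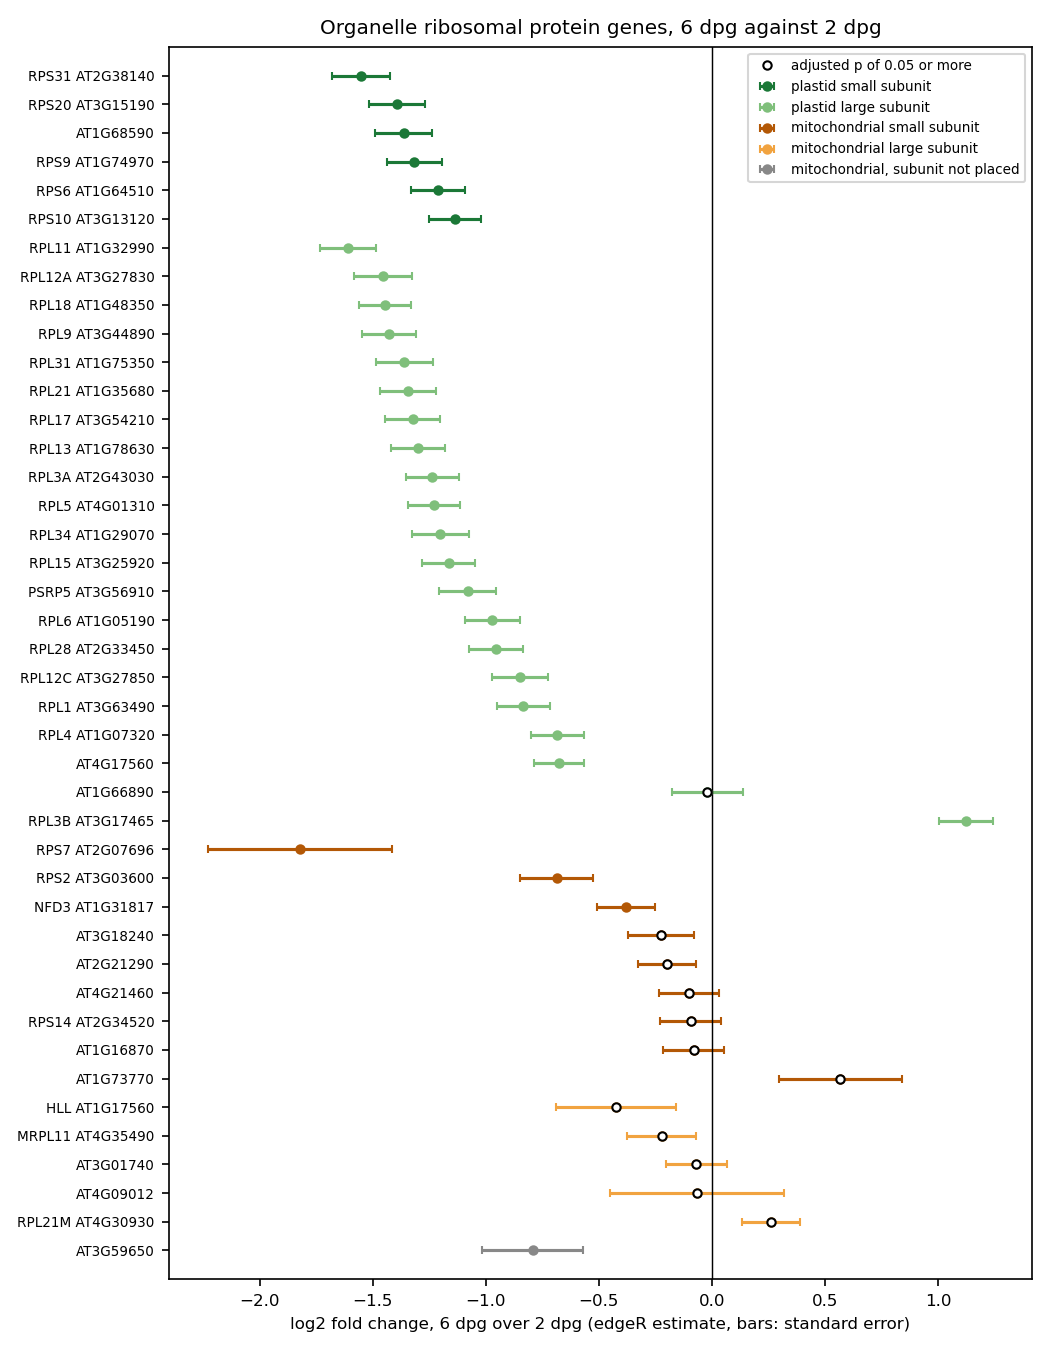
Log2 fold change of 42 tested members, 6 dpg over 2 dpg, as estimated by edgeR, with a standard error derived from its test statistic. Colours give the organelle and subunit, and open points have an adjusted p of 0.05 or more. The 25 plastid genes called lower that are drawn lie between -1.61 and -0.68, RPL3B lies at 1.12, and 11 of the 15 mitochondrial genes are open.

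The summed level of the plastid genes was 6473 and 5968 CPM in the 6 dpg libraries, against 14504 and 14026 CPM in the 2 dpg libraries, a 2.29-fold lower mean. Small-subunit genes summed to 1443 and 1331 CPM at 6 dpg, against 3749 and 3536 CPM at 2 dpg, and large-subunit genes to 5030 and 4638 CPM at 6 dpg, against 10755 and 10491 CPM at 2 dpg. Both subunits were thus lower in each 6 dpg library than in either 2 dpg library, 2.63-fold for the small and 2.20-fold for the large subunit. The mitochondrial genes summed to 234 and 229 CPM at 6 dpg and to 291 and 240 CPM at 2 dpg, a ratio of 0.872. Their 6 dpg libraries lay just below the lower 2 dpg library. The spread between the 2 dpg libraries was wide for the mitochondrial and for the cytosolic ribosomal protein genes, and narrow for the plastid genes. With 2 libraries against 2, an exact two-sided permutation test of a single sum cannot give a p below 0.333, so these sums carry no test of their own.

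**Figure D2:**
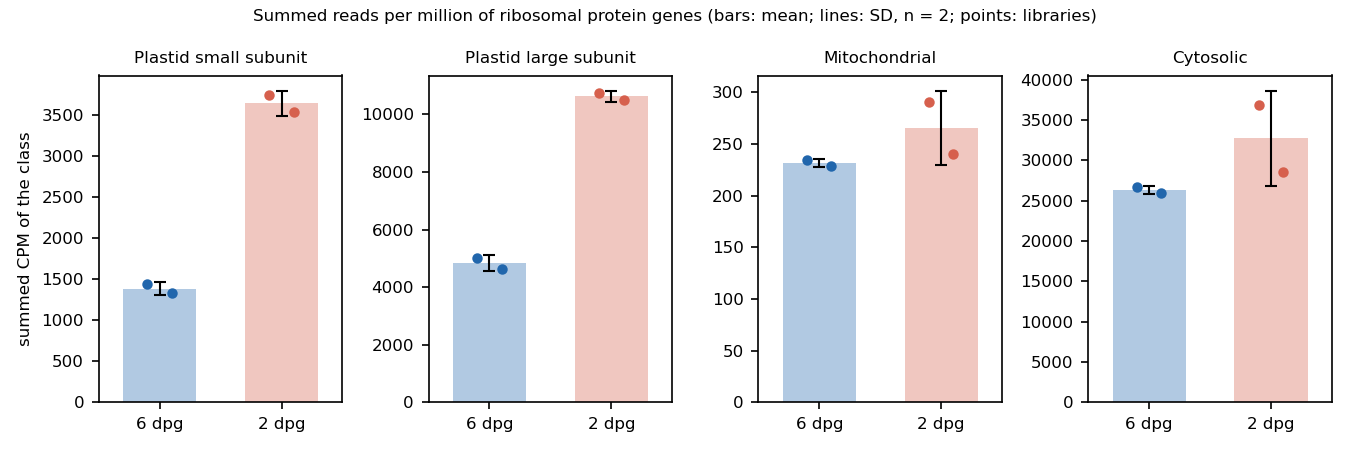
Summed CPM of the plastid small-subunit, plastid large-subunit, mitochondrial and cytosolic ribosomal protein genes; bars are means at 6 dpg (left) and 2 dpg (right), lines the SD of 2 libraries and points the libraries. Plastid sums at 6 dpg lie far below those at 2 dpg, while the mitochondrial sums of 234 and 229 CPM at 6 dpg lie close to 240 CPM in a 2 dpg library.

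All 8 plastid small-subunit genes fell, with a median log2 fold change of -1.36, and the 6 described singly ranged from -1.55 to -1.14. Gene coordinates here and below are those of the deposited table. RPS31 (AT2G38140, chromosome 2, 15980883 to 15981612), a small basic protein of the plastid 30S subunit, had 126 and 113 CPM at 6 dpg, against 374 and 329 CPM at 2 dpg, a log2 fold change of -1.55 ± 0.13 (SE, edgeR adjusted p = 3.06e-05). RPS20 (AT3G15190, chromosome 3, 5116141 to 5117615), whose counterpart in Escherichia coli is a primary binder of the small ribosomal RNA, had 175 and 157 CPM at 6 dpg, against 451 and 418 CPM at 2 dpg, a log2 fold change of -1.39 ± 0.12 (SE, edgeR adjusted p = 4.10e-05). In both genes the 2 libraries of an age lay close together and the ages lay apart. AT1G68590, which encodes a plastid-specific ribosomal protein, had a log2 fold change of -1.36; a 19.3% share of its span is overlapped by AT1G68585 on the opposite strand, and since the library kit does not mark the strand, reads in that stretch cannot be told apart. Further log2 fold changes were -1.32 for RPS9, -1.21 for RPS6 and -1.14 for RPS10. In Escherichia coli S9 touches the tRNA in the P site, S6 binds together with S18 and S10 lies in the head of the subunit.

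On the per-length scale the 6 small-subunit genes were alike in level. Their mean FPKM (fragments scaled to gene length and library size, as deposited) lay between 155 and 239 at 6 dpg and between 354 and 575 at 2 dpg. RPS31 had 232 and 210 FPKM at 6 dpg, against 598 and 552 FPKM at 2 dpg, and RPS6 had 252 and 225 FPKM at 6 dpg, against 477 and 505 FPKM at 2 dpg. RPS6 thus had the higher mean of this pair at 6 dpg and RPS31 at 2 dpg.

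**Figure D3:**
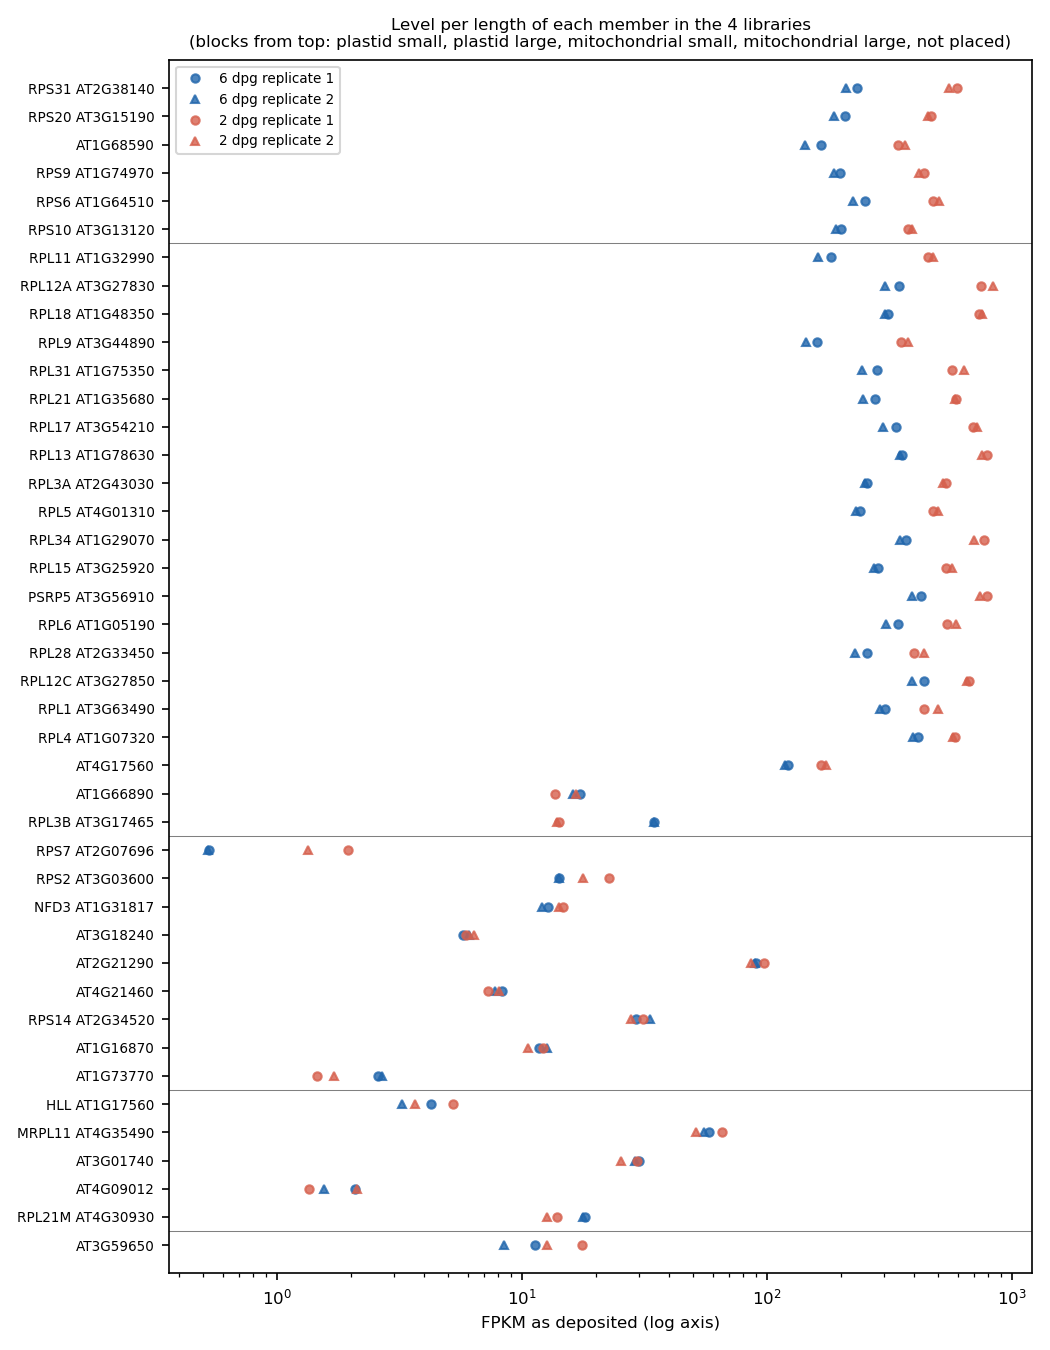
Deposited FPKM of 42 tested members in each library on a log axis, with 6 dpg in blue and 2 dpg in red, circles for replicate 1 and triangles for replicate 2. The plastid genes called lower lie between 120 and 414 mean FPKM at 6 dpg, and the mitochondrial genes lie below them, with at most 89.8 mean FPKM at 6 dpg.

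Of the 21 tested plastid large-subunit genes, 19 fell, 1 rose and AT1G66890, the gene known only by its best match, did not pass the test, with 9.07 and 8.44 CPM at 6 dpg and 8.28 and 9.55 CPM at 2 dpg. The median log2 fold change of the 21 genes was -1.20. RPL11 (AT1G32990, chromosome 1, 11955785 to 11957284), which in Escherichia coli belongs to the centre of the large subunit where translation factors split GTP, had 148 and 129 CPM at 6 dpg, against 424 and 422 CPM at 2 dpg. The 2 dpg libraries were nearly equal and both 6 dpg libraries lay far below them. The log2 fold change of RPL11 was -1.61 ± 0.12 (SE, edgeR adjusted p = 2.15e-05). RPL12A (AT3G27830, chromosome 3, 10318505 to 10319432), a gene for the stalk protein that recruits translation factors, had 303 and 264 CPM at 6 dpg, against 752 and 802 CPM at 2 dpg, a log2 fold change of -1.45 ± 0.13 (SE, edgeR adjusted p = 3.92e-05). RPL18 (AT1G48350, chromosome 1, 17867204 to 17868342), whose counterpart in Escherichia coli binds the 5S ribosomal RNA, had 209 and 200 CPM at 6 dpg, against 563 and 549 CPM at 2 dpg, a log2 fold change of -1.45 ± 0.12 (SE, edgeR adjusted p = 2.63e-05). None of these 3 genes showed overlap between the ages.

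The other genes of the large subunit that fell formed a graded series. RPL9, RPL31, RPL21, RPL17, RPL13, RPL3A, RPL5, RPL34, RPL15 and PSRP5 had log2 fold changes between -1.43 and -1.08. Among them are RPL5, which in Escherichia coli binds the 5S ribosomal RNA with L18, RPL17, which in Escherichia coli lies beside the exit of the peptide tunnel, and RPL13 and RPL15, which in Escherichia coli act in the assembly of the subunit. PSRP5 (AT3G56910), a plastid-specific protein without a bacterial counterpart, had the highest mean FPKM of the large-subunit genes over both ages, with 424 and 391 FPKM at 6 dpg, against 791 and 737 FPKM at 2 dpg. RPL6, which in Escherichia coli lies near the site where translation factors bind, had a log2 fold change of -0.97, and RPL28 one of -0.95.

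The smallest falls were those of RPL12C (-0.85 ± 0.12), RPL1 (-0.83 ± 0.12), RPL4 (-0.68 ± 0.12) and AT4G17560, a gene for L19 (-0.68 ± 0.11; log2 fold change ± SE). In Escherichia coli L1 forms the movable stalk where tRNA leaves and L19 lies at a contact between the subunits. RPL4, which in Escherichia coli lines the peptide tunnel, had 464 and 439 CPM at 6 dpg, against 752 and 699 CPM at 2 dpg. AT4G17560 had 135 and 130 CPM at 6 dpg, against 213 and 212 CPM at 2 dpg. Both genes passed the test (edgeR adjusted p = 0.00126 for RPL4 and 0.000945 for AT4G17560), and both lost the call when libraries were scaled on the cytosolic ribosomal protein genes (adjusted p = 0.078 and 0.111 by edgeR). Among the large-subunit genes that fell, the spread in fold change from RPL11 to AT4G17560 was several times the SE of a single gene. This sets the extremes of 19 genes against the SE of 1, and differences between the genes were not tested.

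RPL3B (AT3G17465, chromosome 3, 5977817 to 5979652) was the single member that rose. It had 1018 and 821 reads at 6 dpg, against 490 and 371 reads at 2 dpg, or 42.2 ± 0.241 CPM at 6 dpg and 19.4 ± 1.01 CPM at 2 dpg (SD, n = 2 each), a log2 fold change of 1.12 ± 0.12 (SE, edgeR adjusted p = 9.19e-05). Both 6 dpg libraries lay above both 2 dpg libraries, as in 40.4% of all tested genes. Its partner RPL3A (AT2G43030, chromosome 2, 17894836 to 17895866), described as the other plastid L3, a protein that in Escherichia coli reaches towards the peptidyl transferase centre, had 251 and 242 CPM at 6 dpg, against 605 and 557 CPM at 2 dpg, a log2 fold change of -1.24 ± 0.12 (SE, edgeR adjusted p = 5.80e-05). Within each library RPL3A had 5.92 and 5.77 times the CPM of RPL3B at 6 dpg, against 30.1 and 29.8 times at 2 dpg. RPL3A was thus the more abundant of the pair in every library, and the ratio was close between the libraries of an age. The coding sequences of the pair in the reference are 58.8% identical, with no identical run longer than 9 bases. On the per-length scale RPL3B, with 34.5 and 34.5 FPKM at 6 dpg and 14.2 and 13.9 FPKM at 2 dpg, was far below the other tested plastid genes named as ribosomal proteins, of which the next lowest, AT4G17560, had 122 and 118 FPKM at 6 dpg.

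The 3 plastid L12 genes lie side by side on chromosome 3 and differ in use. RPL12B (AT3G27840) had 2 reads in 6 dpg replicate 2 and none in the other libraries and was not tested. RPL12C (AT3G27850, 10324839 to 10325713) had 362 and 321 CPM at 6 dpg, against 638 and 593 CPM at 2 dpg, and RPL12A over RPL12C was 0.837 and 0.821 in CPM at 6 dpg, against 1.18 and 1.35 in CPM at 2 dpg. RPL12C was the higher of the pair in both 6 dpg libraries and RPL12A in both 2 dpg libraries. RPL12A and RPL12C are 93.4% identical over 564 coding bases and share an identical run of 255 bases, so how the authors' counting split or dropped reads of the shared stretches bears on their ratio. Their first 90 coding bases in the RefSeq annotation of TAIR10.1, shown because they lie in the less alike part of the genes, differ at 14 positions, marked by capitals.
RPL12A (AT3G27830): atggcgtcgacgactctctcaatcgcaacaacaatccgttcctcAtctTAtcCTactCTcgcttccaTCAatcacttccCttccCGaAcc
RPL12C (AT3G27850): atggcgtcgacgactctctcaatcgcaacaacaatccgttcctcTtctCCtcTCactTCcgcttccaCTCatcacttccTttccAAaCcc

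Among the mitochondrial genes, RPS7, RPS2 and NFD3 of the small subunit and AT3G59650, whose subunit its description leaves unplaced, fell. RPS2 (AT3G03600, chromosome 3, 867660 to 868578), whose counterpart in Escherichia coli binds late to the back of the small subunit, had 12.4 and 12.2 CPM at 6 dpg, against 22.6 and 16.8 CPM at 2 dpg. The groups did not overlap, and the 2 dpg libraries were farther apart than the 6 dpg libraries. Its log2 fold change was -0.69 ± 0.16 (SE, edgeR adjusted p = 0.00609). The call of RPS2 was lost when libraries were scaled on the cytosolic ribosomal protein genes (adjusted p = 0.246 by edgeR).

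NFD3 (AT1G31817, chromosome 1, 11414749 to 11416444), a gene for mitochondrial S11 whose loss in Arabidopsis is known to hinder the fusion of the polar nuclei in the female gametophyte, had 14.7 and 13.8 CPM at 6 dpg, against 19.4 and 17.7 CPM at 2 dpg. Its log2 fold change of -0.38 ± 0.13 (SE, edgeR adjusted p = 0.0301) was the smallest of those called. The call was lost with DESeq2 (adjusted p = 0.106), with a log2 fold change of -0.38, and on leaving out 6 dpg replicate 1 (-0.43, edgeR adjusted p = 0.110), 6 dpg replicate 2 (-0.34, adjusted p = 0.194) or 2 dpg replicate 1 (-0.31, adjusted p = 0.0823). It was also lost once the trend of fold change with gene length over all genes was removed (-0.28, edgeR adjusted p = 0.0781) and with scaling on the cytosolic ribosomal protein genes, where the log2 fold change was -0.08 (adjusted p = 0.821). AT3G59650, described as a protein of the L51/S25/CI-B8 family, had 7.61 and 5.63 CPM at 6 dpg, against 13.7 and 9.30 CPM at 2 dpg, a log2 fold change of -0.79 ± 0.22 (SE, edgeR adjusted p = 0.0146). That call was lost without 6 dpg replicate 2 (-0.60, adjusted p = 0.0711) or without 2 dpg replicate 1 (-0.48, adjusted p = 0.106 by edgeR). It was lost as well with the length trend removed (-0.52, edgeR adjusted p = 0.0525) and with scaling on the cytosolic ribosomal protein genes (-0.47, adjusted p = 0.167).

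RPS7 (AT2G07696, chromosome 2, 3351050 to 3351881), whose counterpart in Escherichia coli starts the assembly of the head of the small subunit, had 10 and 8 reads at 6 dpg, against 43 and 23 reads at 2 dpg, a log2 fold change of -1.82 ± 0.41 (SE, edgeR adjusted p = 0.00477). All 832 bases of its span are identical to a stretch of the mitochondrial genome in the reference, as are the 219 bases of the S14 pseudogene AT2G07726. Reads of the mitochondrial copy and of the nuclear copy therefore cannot be told apart in RPS7. A 19.6% share of its span is also overlapped by AT2G07599 on the same strand, so reads in that stretch cannot be told apart either. Without RPS7, 3 of 14 mitochondrial genes fell and their median log2 fold change was -0.15.

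The other 11 tested mitochondrial genes did not pass the test, with log2 fold changes between -0.42 and 0.57. MRPL11, the mitochondrial counterpart of RPL11, had 42.5 and 40.2 CPM at 6 dpg and 55.3 and 41.1 CPM at 2 dpg, with overlap between the ages (log2 fold change -0.22 ± 0.15, edgeR adjusted p = 0.241). AT2G21290, which encodes the mitochondrial S31, had 40.6 and 39.8 CPM at 6 dpg and 50.1 and 42.2 CPM at 2 dpg (log2 fold change -0.20 ± 0.13, edgeR adjusted p = 0.211). Both genes passed the test without 2 dpg replicate 2 (adjusted p = 0.00879 for MRPL11 and 0.0261 for AT2G21290 by edgeR). Without 2 dpg replicate 1 the log2 fold change of MRPL11 was 0.01, and with the length trend removed that of AT2G21290 was 0.24, neither past the test. RPL21M had 20.4 and 19.9 CPM at 6 dpg and 18.1 and 15.6 CPM at 2 dpg (log2 fold change 0.26 ± 0.13, edgeR adjusted p = 0.115), and it passed the test as higher without 2 dpg replicate 1 (adjusted p = 0.0371 by edgeR). HLL, a gene for mitochondrial L14 named for its part in the growth of the ovule, had 3.54 and 2.66 CPM at 6 dpg and 5.00 and 3.32 CPM at 2 dpg, with overlap between the ages. AT3G18240 and AT4G21460, both described as S24/S35, are 95.4% identical in coding sequence and had log2 fold changes of -0.23 ± 0.14 and -0.10 ± 0.13, neither past the test.

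Pairs with the same protein name in both organelles allow a comparison within a library. RPL11 had 3.47 and 3.22 times the CPM of MRPL11 at 6 dpg, against 7.66 and 10.3 times at 2 dpg. RPL21 had 11.2 and 10.2 times the CPM of RPL21M at 6 dpg, against 31.3 and 34.1 times at 2 dpg. RPS31 had 3.11 and 2.85 times the CPM of AT2G21290 at 6 dpg, against 7.47 and 7.79 times at 2 dpg. In all 3 pairs the plastid gene was the higher in every library, and the ratio was lower in both 6 dpg libraries than in either 2 dpg library. These ratios are not tested, since 2 libraries against 2 cannot give an exact permutation p below 0.333. The pairs are between 57.2% and 61.2% identical in coding sequence.

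**Figure D4:**
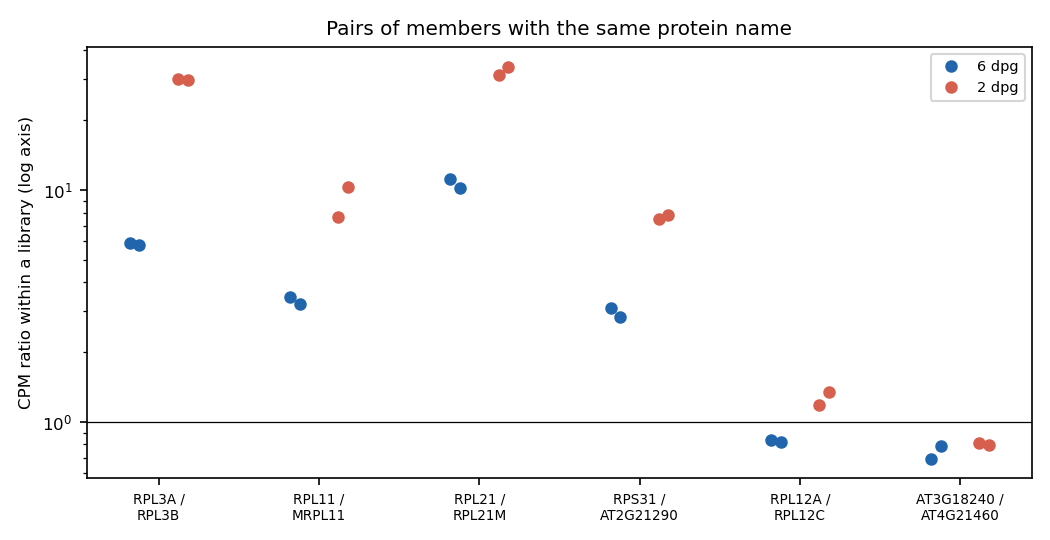
Ratio of CPM within each library for pairs of members with the same protein name, on a log axis, with 6 dpg at the left of each pair in blue and 2 dpg at the right in red. RPL3A over RPL3B is 5.92 and 5.77 at 6 dpg, against 30.1 and 29.8 at 2 dpg, while AT3G18240 over AT4G21460 stays between 0.694 and 0.808 in the 4 libraries.

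In level per length, the 28 tested plastid genes named as ribosomal proteins had a median of 258 FPKM at 6 dpg and of 560 FPKM at 2 dpg, where all tested genes had medians of 9.20 FPKM at 6 dpg and 7.81 FPKM at 2 dpg. The 14 mitochondrial genes named as ribosomal proteins had a median of 12.3 FPKM at 6 dpg and of 13.8 FPKM at 2 dpg, and AT2G21290 was the highest of them, with 90.3 and 89.4 FPKM at 6 dpg and 96.9 and 85.8 FPKM at 2 dpg. Cytosolic ribosomal protein genes lay between the plastid and mitochondrial genes, at a median of 175 FPKM at 6 dpg and 199 FPKM at 2 dpg.

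Members are short genes, with a median length of 883 bases against 1523 bases for all tested genes, and short genes as a class were lower at 6 dpg: the trend of all genes at the members' lengths had a median log2 value of -0.21. After that trend was removed, 27 plastid genes were still lower and 1 was higher, with a median log2 fold change of -1.09. Among mitochondrial genes 2 were then lower (RPS7 and RPS2) and 2 higher, RPL21M (adjusted p = 0.0288) and AT1G73770 (adjusted p = 0.0352 by edgeR), with a median of -0.07. Scaling libraries on the cytosolic ribosomal protein genes moved the median of all genes to 0.29 and the calls to 5312 higher and 2161 lower. Under it 25 of the 27 plastid genes were still lower and RPL3B was still higher, with a plastid median of -0.94 (-1.23 relative to that of all genes), while the mitochondrial median turned to 0.11 (-0.19 relative to that of all genes).

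Of 174 tested cytosolic ribosomal protein genes, 77 were lower and 9 higher, with a median log2 fold change of -0.35. That split rested on the processing: with the length trend removed 30 were lower and 24 higher (median -0.08), without 2 dpg replicate 1 57 were lower and 22 higher (median -0.16), and without 2 dpg replicate 2 131 were lower and 7 higher (median -0.52). Without 6 dpg replicate 1 42 were lower and 5 higher, and without 6 dpg replicate 2 36 were lower and 5 higher. Of 44 genes for photosystem and chlorophyll-binding proteins 36 were lower and 1 higher (median -0.73). With the length trend removed 31 were lower and 2 higher (median -0.57). Scaled on the cytosolic ribosomal protein genes, 26 were lower and 1 higher (median -0.44). Of 31 genes of the mitochondrial respiratory chain 30 were lower and 1 did not pass the test (median -0.90). Of these, 26 were lower with the length trend removed (median -0.59). Scaled on the cytosolic ribosomal protein genes, 19 were lower (median -0.58). Of all tested genes 28.4% were lower in the main fit. The plastid ribosomal protein genes had the lowest median of these groups, and the mitochondrial ribosomal protein genes the highest. The differences between the groups were not tested.

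Other genes of organelle gene expression were taken as 6 lists. Of 15 genes for RNA polymerases, sigma factors and polymerase-associated proteins, 8 rose and 7 did not pass the test. SCA3, the plastid phage-type RNA polymerase, had 25.3 ± 2.13 CPM at 6 dpg and 7.25 ± 0.981 CPM at 2 dpg (SD, n = 2 each; log2 fold change 1.81 ± 0.15), and the mitochondrial polymerase gene MGP3 of the same list had a log2 fold change of 1.76 ± 0.13. Of 12 genes for plastid ribosomal RNA processing and ribosome assembly, 7 rose and 5 did not pass the test, and emb2738, which encodes a GTP-binding protein, had 106 ± 1.99 CPM at 6 dpg and 39.1 ± 0.947 CPM at 2 dpg (SD, n = 2 each). Of 12 translation factor genes, 4 rose and 3 fell. SCO1, the plastid elongation factor G, rose by a log2 fold change of 1.38 ± 0.13, while RABE1b, the plastid elongation factor Tu, and RRF, the plastid ribosome recycling factor, had log2 fold changes of -0.60 ± 0.14 and -0.75 ± 0.13 and fell. PrfB3 (1.92 ± 0.17), named as a release factor, had the largest rise of that list and the mitochondrial elongation factor Tu gene TUFA (-0.78 ± 0.18) the largest fall.

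Of 6 genes for organelle aminoacyl-tRNA synthetases, 3 fell and 3 did not pass the test, and EMB2768, a tyrosyl-tRNA synthetase, had a log2 fold change of -1.06 ± 0.12. Of 5 genes for protein import into plastids, TOC159 (1.14 ± 0.12) and TOC33 (0.63 ± 0.12), both receptors, rose and TOC75-III (-0.48 ± 0.15), the channel of the outer envelope, fell. Of 4 regulators, GPRI1 (0.93 ± 0.12), also known as GLK1 and an activator of photosynthesis genes, TOR (0.72 ± 0.15), a growth-controlling kinase, and TCP20 (0.42 ± 0.15), a factor known to bind site II elements, rose, and GUN1 (-0.67 ± 0.11), a plastid protein of signalling to the nucleus, fell. Of the 54 genes of the 6 lists, 24 rose and 8 fell, beside 28.3% of all tested genes higher and 28.4% lower. With the length trend removed, 7 polymerase genes were higher (median 0.22, against 0.39 before), 5 processing and assembly genes were higher (median 0.28, against 0.50), 4 translation factor genes were higher and 4 lower (median -0.10, against 0.05), and 1 synthetase gene was higher and 4 lower (median -0.71, against -0.50). Under the same offsets 2 import genes were higher and 1 lower (median 0.07, against 0.29). Of the regulators, 2 were then higher and 1 lower (median 0.28, against 0.57), and with DESeq2 also 2 were higher and 1 lower. The trend at the regulators' lengths reached a log2 value of 0.65, and TOR is 8007 bases long. Scaling on the cytosolic ribosomal protein genes moved the median of all genes to 0.29. Under it 3 import genes were higher and 0 lower, and 3 regulators were higher and 0 lower, so TOC75-III and GUN1 lost their calls as lower. Of the translation factor genes 4 were then higher and 1 lower, and of the synthetase genes 2 were higher and 3 lower. With that scaling 8 polymerase genes and 7 processing and assembly genes were higher. The difference between these lists and the plastid ribosomal protein genes was not tested.

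In the window from 250 bases before to 50 bases after the RefSeq start, read for 30 of 31 plastid and 15 of 16 mitochondrial genes, a site II element on either strand was found in 15 plastid promoters (50%) and in 10 mitochondrial promoters (66.7%). The share was 76.5% of 183 cytosolic ribosomal protein genes and 21.7% of all 27443 coding genes with a window of this length. For the respiratory chain it was 66.7% of 33 genes, the same as for the mitochondrial members. Of 44 photosystem and chlorophyll-binding genes it was 27.3%. Among plastid genes it was 7 of 8 for the small subunit (87.5%) and 8 of 22 for the large subunit (36.4%). The telo-box was found in 6 plastid promoters (20%) and 2 mitochondrial promoters (13.3%), against 49.7% of the cytosolic genes and 6.22% of all coding genes. Among the plastid genes called lower, the 14 with a site II element had a median log2 fold change of -1.27 and the 13 without one a median of -1.30. RPS31, shown above, holds both motifs. RPL11 holds a site II element only after its RefSeq start and RPL3B a telo-box only after its RefSeq start. The authors' coordinates start both genes further downstream, at 11955785 for RPL11 and 5979652 for RPL3B, and both matches lie before those starts. RPL12A and RPL18, with falls close to that of RPL11, hold neither motif in the window. A match is a description of letters, not of a bound site.

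**Figure D5:**
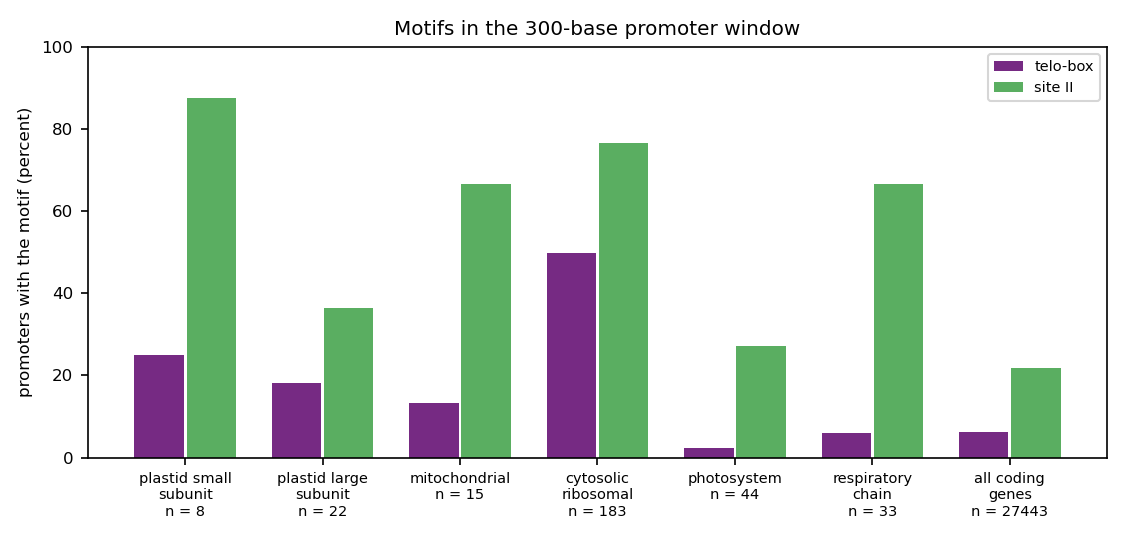
Percent of promoter windows of 300 bases with a telo-box or a site II element on either strand, for plastid small-subunit, plastid large-subunit and mitochondrial ribosomal protein genes, then for cytosolic ribosomal protein, photosystem and respiratory chain genes and for all coding genes. Site II elements are found in 87.5% of the plastid small-subunit and in 36.4% of the plastid large-subunit promoters, against 21.7% of all coding genes.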

How the data were processed

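RNA was sequenced from 2 libraries of 6 dpg and 2 of 2 dpg seedlings; per the labels' protocols the kit was NEBNext Ultra RNA. The submitters' processing notes name TopHat2 2.0.12, HTSeq 0.6.1, Bowtie2 2.2.3 and DESeq 1.18.0 without their roles. Genome build and annotation: not given in the sources used here. In the deposited table are read counts per gene, which are whole numbers and were taken as not normalized, the authors' FPKM per library, and the authors' adjusted p-value per gene. The 2 columns headed by other days were not used. Gene coordinates are those of the authors' table. Because the table held is partial, library totals were recovered from the deposited counts, FPKM and lengths.

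The 2 ages were set against each other over all genes in edgeR 4.0.16 (R 4.3.3): scaling by TMM with recovered totals as library sizes, a minimum count of 10, the quasi-likelihood test with age as the only term and Benjamini-Hochberg adjusted p under 0.05. The filter left 16160 genes and removed 10624, among them 3 members (the pseudogenes AT1G04457 and AT2G07726, with no read, and RPL12B). CPM divide by the recovered totals after TMM scaling. The SE given with a log2 fold change is the absolute log2 fold change divided by the square root of the quasi-likelihood F statistic. Alternatives were DESeq2 1.42.0, other factors, totals and filters, each library left out, the replicate number as a block, offsets without the trend with gene length, and scaling on cytosolic ribosomal protein genes. Leaving out RPS7 was chosen after seeing the data.

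Named genes were, per organelle and subunit, at most 3 called members that rose most and at most 3 that fell most, the member with the highest mean FPKM, members not tested, members with the same protein name, and in each list the called genes with the largest rise and fall. Further genes were named after their values were seen. The single values of 2 members are not reported here; both enter the counts, medians and sums. The members and lists were chosen with earlier results of these data known. Promoters and coding sequences were read from the RefSeq genome and annotation of TAIR10.1, matched by locus; of 26407 matched genes, 8585 have the same start and end as in the authors' table. Whether deposited FPKM rest on the table's gene length was checked in 2 dpg replicate 1, for members with over 200 reads there. They do not for RPL4, AT1G68590, RPS10, AT3G18240, AT3G59650 and RPL1. HLL, RPS7, AT4G09012, AT1G73770, RPL12B and the pseudogenes had fewer reads and were not checked. The stated limit of 3 reads marks detection only, and counting error is present at every read count.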

Additional observations from a re-analysis of the deposited data

How the results depend on the processing

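The plastid result kept 27 lower and 1 higher gene with DESeq2, other factors, totals and filters, each library left out, the replicate block and the length-adjusted offsets; scaled on the cytosolic ribosomal protein genes it had 25 lower. With length-adjusted offsets the medians were -0.78 for all members, -1.09 for plastid and -0.066 for mitochondrial genes, 3 members were higher, and 2 mitochondrial genes were lower and 2 higher. Scaled on the cytosolic ribosomal protein genes, 2161 of all genes were lower, the medians were -0.73, -0.94 and 0.11, and 1 mitochondrial gene was lower.

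Leaving out each library in turn gave 2 to 6 lower and 0 to 1 higher mitochondrial genes, 1 to 2 higher members, and medians of -1.10 to -0.95 for members, -1.31 to -1.21 for plastid and -0.22 to -0.085 for mitochondrial genes. The mitochondrial median was -0.085 with 2 dpg replicate 1 left out and -0.18 with 6 dpg replicate 2 left out. The cause of these changes was not tested.

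With the replicate number as a block, 31 members were lower and 1 higher, 27 plastid and 4 mitochondrial genes were lower, and the medians were -1.03, -1.24 and -0.19; with the block and length-adjusted offsets the medians were -0.78, -1.09 and -0.067, and 3 members, 2 of them mitochondrial, were higher. Deviations of same-numbered libraries from their age's mean were not correlated (r = -0.0037 across genes, which are not independent replicates). With 1 difference between replicates per age, this value cannot show whether the numbers pair the libraries.

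Within only the 250 bases before the start, the telo-box was found in 20.8% and a site II element in 68.3% of cytosolic ribosomal protein genes, against 4.49% and 19.2% of all coding genes; the plastid shares were 16.7% and 40% and the mitochondrial 6.67% and 46.7%. Depth limits the mitochondrial members with few reads, such as RPS7. Leaving out a library leaves its age with a lone sample, assumed to vary like the other age.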
